A study of Mus musculus with 5 samples.

Results

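Translation factors are the proteins that bring an mRNA, a ribosome and the first tRNA together and then drive the ribosome along the message. The genes described here were chosen by name: all symbols beginning with Eif1 to Eif6, Eef1 or Eef2, leaving out the eIF2 kinases (Eif2ak) and Eif4enif1, which gave 69 of the 34240 features in the deposited table. They were compared between 3 libraries of normal myeloid cells, sorted as Gr1+Mac1+ from bone marrow, and 2 libraries of leukaemia cells, sorted as Mac+Gr1+B220+ from bone marrow and spleen. The donors were BALB/c mice, aged 10 to 12 months by their labels. The acute myeloid leukaemia (AML) was driven by CNTRL-FGFR1, which joins centriolin to the receptor tyrosine kinase FGFR1, and the comparison asks what the leukaemia cells express differently from normal cells of the same lineage. The tissue and the B220 sort differ between the groups and cannot be told apart from the leukaemia. No label ties a library to its own mouse, and p-values therefore reflect the spread among these 5 libraries alone, which may be technical. No source used here states how the fusion was delivered or whether cells of several mice were pooled.

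Of the 69 features, 9 were listed at 0 in every library, namely 8 rows named as pseudogenes and Eif2c5. A further 4 (Eef1a2, Eif4e1b, Eif5a2 and Eif2c3) lay under the filter of at least 1 RPKM in at least 2 libraries, which left 56 tested genes. RPKM, reads scaled by exon length and by the reads mapped in the library, is the unit the values are taken to have, and it allows levels of different genes to be compared per length. The 4 genes listed as Eif2c1 to Eif2c4 encode Argonaute proteins, which bind small RNAs and carry an older name of the eIF2 series. They met the name rule but are not translation factors, and they are counted apart where it matters.

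Initiation starts when eIF2 carries the initiator tRNA to the small ribosomal subunit, on which eIF3 is the scaffold and eIF1 and eIF1A help find the start codon. eIF4E binds the mRNA cap, eIF4G joins it to eIF3 and to the helicase eIF4A, and the 4E-BP proteins block eIF4E from eIF4G. eIF2B reloads eIF2 with GTP and is the step at which stress signals slow initiation, eIF5 and eIF5B end initiation, and eEF1 and eEF2 then deliver tRNAs and move the ribosome. In blood cells, growth signals and the transcription factor MYC are known to raise translation factor output.

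The libraries also differed in their totals and in markers of cell types. RPKM totals ran from 472234 to 638584, and S100a8 and S100a9, the calprotectin genes of neutrophils, took 20.8% to 37% of them. The deposited table gives no read counts, so no counting interval was computed. Of the sort markers, Itgam (Mac1) was at 580, 458 and 429 RPKM in normal and 251 and 169 RPKM in AML libraries. Ly6g (Gr1) was at 1336, 1464 and 1126 RPKM in normal and 650 and 482 RPKM in AML libraries. Ptprc, whose B220 isoform the table does not separate, was at 258, 263 and 164 RPKM and 71.7 and 77.7 RPKM. Itgam, Ly6g and Ptprc were each lower in AML (limma adjusted p = 0.020, 0.020 and 0.0087). Fgfr1 was at 0.02, 0.03 and 0.02 RPKM in normal and 0.15 and 0.16 RPKM in AML libraries, under the filter. Of the fixed cell type markers, all 4 tested primary granule genes rose in AML (summed level 258 to 376 RPKM in normal and 9606 to 10586 RPKM in AML libraries), and 9 of 10 monocyte and macrophage genes fell (528 to 817 against 37.3 to 45.9 RPKM), with none higher. The 10 mature neutrophil genes summed to 189666 to 298285 RPKM in normal and 170808 to 238043 RPKM in AML libraries, with 6 lower and none higher. S100a8 and S100a9 made up much of these sums, at 71205 and 61718 RPKM in normal library 1, and neither passed. Of 10 T and NK cell genes 5 were tested, with 4 higher and 1 lower (56.4 to 63.2 against 573 to 617 RPKM). Trac was at 0 in every library, and Cd8a was at 0 in both AML libraries. B cell genes summed to 13.6 to 21.3 and 11.1 to 13.8 RPKM, and 1 of 4 tested genes was lower. Erythroid genes summed to 2214 and 1450 RPKM in normal libraries 1 and 2 but 168 RPKM in normal library 3 and 148 and 170 RPKM in the AML libraries, and none of 6 tested passed. Beside these marker counts, 19.3% of all 10166 tested genes were higher and 11.8% lower. The part of these markers in the results on translation factors was not tested.

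Among the 56 tested members, 10 rose and 2 fell in AML (limma, Benjamini-Hochberg adjusted p under 0.05). The genes that rose were 6 subunits of eIF3 (Eif3b, Eif3d, Eif3e, Eif3g, Eif3h and Eif3i), 2 of eIF2B (Eif2b1 and Eif2b4) and 2 of the eEF1B exchange factor (Eef1b2 and Eef1d). Those that fell were Eif4e3, a cap-binding relative of eIF4E, and the Argonaute gene Eif2c4. This makes 17.9% of the tested members higher, against 19.3% of all 10166 tested genes, and 3.57% lower, against 11.8%. In either direction it is 21.4% against 31%. The share of members called higher is thus near that of all genes. The median log2 fold change was 0.31 over the 56 members and 0.12 over all tested genes. Every AML value lay above every normal value for 24 members (42.9%, against 34.8% of all tested genes) and below for 4 (7.14%, against 22.1%). Without the 3 tested Argonaute genes, 10 of 53 were higher and 1 was lower. The number of decimals deposited for a gene went with its direction. Of the 38 tested members given to 2 decimals, 37 had a positive log2 fold change, 10 rose and none fell, and of the 18 given to 1 decimal, 5 had a positive one, none rose and 2 fell. Among all tested genes, 94.5% of 5417 with 2 decimals and 11.9% of 4749 with 1 decimal were positive, and all 1959 called higher had 2 decimals. With every value rounded to 1 decimal, 10 members were called higher and 2 lower, against 1942 and 1174 of 10192 tested genes. Rounding shifts such values only slightly, so these counts do not address why the decimals went with direction. How the decimals came about was not tested.

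**Figure D1:**
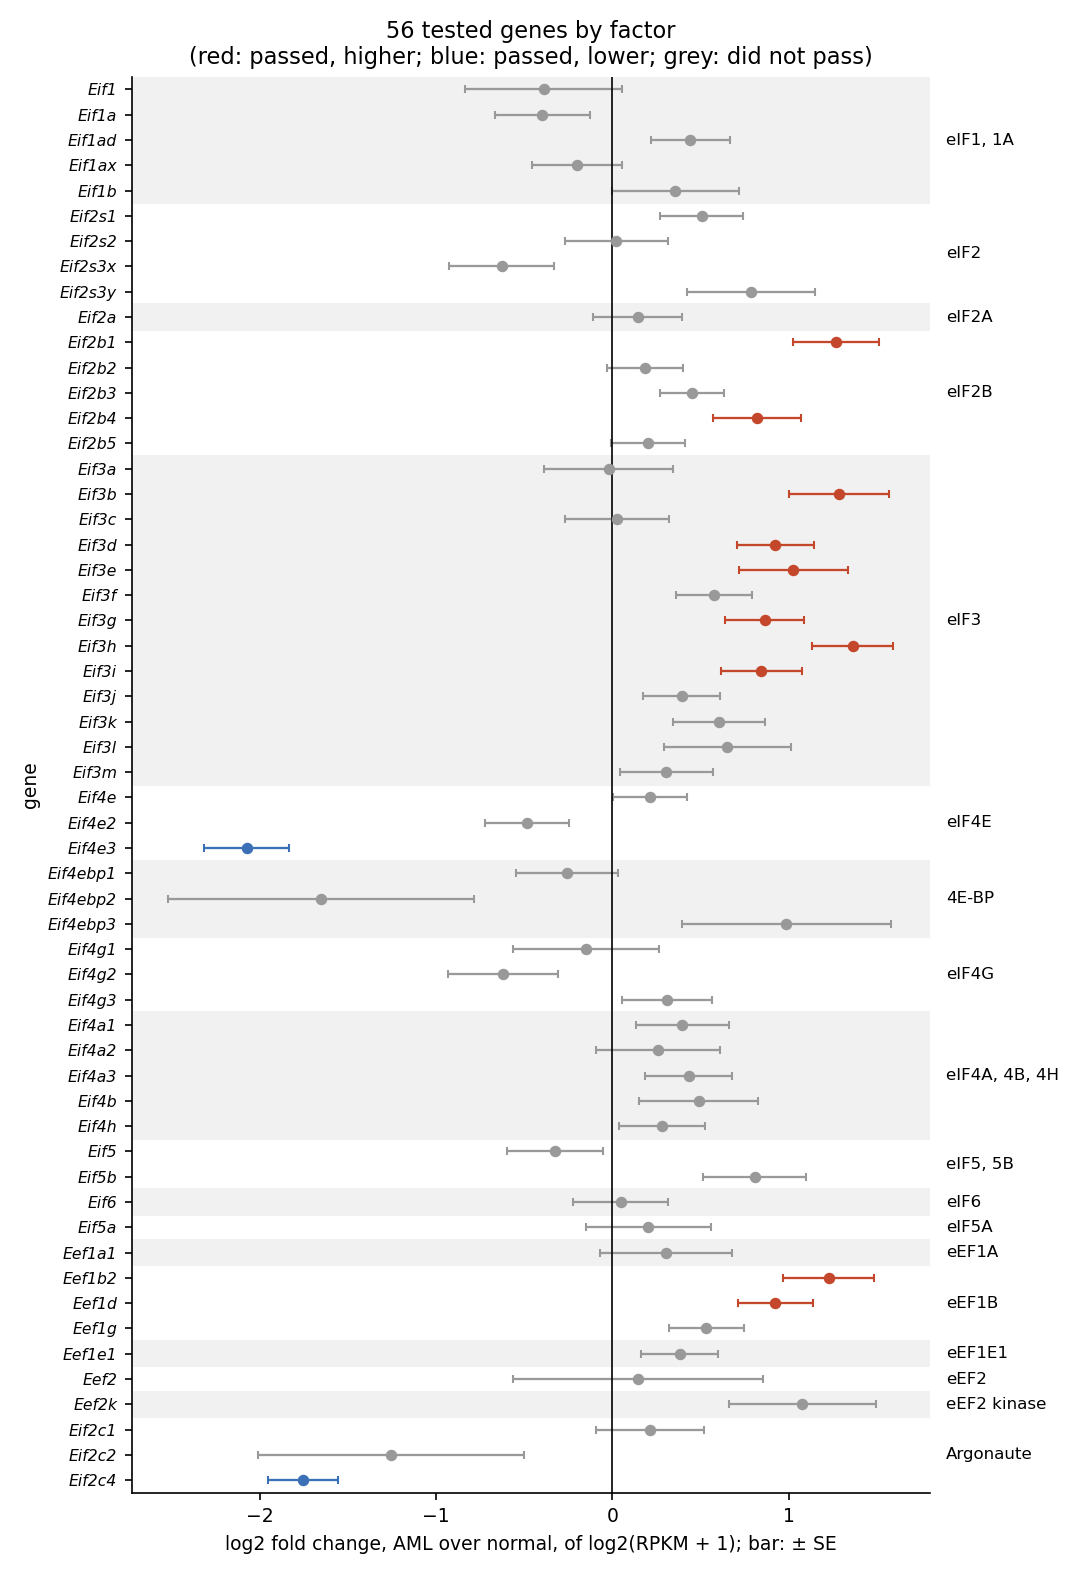
Log2 fold change, AML over normal, for each of the 56 tested genes (x axis, on the log2(RPKM + 1) scale, bars ± SE), with genes grouped by factor on the y axis and coloured by call. The 10 genes that passed in the higher direction are subunits of eIF3, eIF2B and eEF1B, and the 2 that passed in the lower direction are Eif4e3 and Eif2c4.

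Sequences around the transcript starts were read from RefSeq promoters (GRCm38.p6, 250 bases before to 50 after the start), which matched 40 of the 56 tested members by symbol. The letters CACGTG, the E-box that MYC can bind, read the same on both strands. Myc itself was 11-fold higher in AML cells (3.01 ± 0.54 RPKM, SD, n = 3, against 33 ± 5.32 RPKM, SD, n = 2). The E-box letters were in promoters of 11 of the 40 members (27.5%), of 12.1% of 7241 tested genes and of 8.09% of all 27025 genes with a promoter. The 11 were Eef2, Eef2k, Eif1b, Eif3a, Eif3f, Eif3k, Eif4a1, Eif4h, Eif4e, Eif4g1 and Eif5a, none of which passed the test. None of the 6 matched members that rose held them, and another 4 that rose had no promoter entry. With 6 genes, an absence cannot be told apart from the 12.1% share of tested genes. A part of MYC in these results was not tested. The letters CCGGAAGT, a core that ETS factors can bind, were searched on both strands after the sequences had been seen. They were in promoters of 7 of the 40 members (17.5%), 3 of them among the 6 that rose (Eef1b2, Eif2b4 and Eif3d), of 10.1% of tested genes and of 4.31% of all. The windows below show the E-box of 4 members without a call and the ETS core of the 3 that rose, 5′ to 3′ on the gene's strand, with the motif in capitals. A match of letters is a description and shows no binding.
Eif4e (chr3:138527187-138527226, plus strand, GRCm38.p6): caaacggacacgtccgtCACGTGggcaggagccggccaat
Eif4g1 (chr16:20672656-20672695, plus strand): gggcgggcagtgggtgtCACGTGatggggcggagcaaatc
Eef2 (chr10:81176571-81176610, plus strand): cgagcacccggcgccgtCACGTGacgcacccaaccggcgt
Eif3f (chr7:108934330-108934369, plus strand): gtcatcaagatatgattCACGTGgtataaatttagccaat
Eef1b2 (chr1:63176815-63176845, plus strand): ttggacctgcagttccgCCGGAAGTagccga
Eif2b4 (chr5:31193125-31193155, minus strand): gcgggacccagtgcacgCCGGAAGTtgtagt
Eif3d (chr15:77970871-77970912, minus strand): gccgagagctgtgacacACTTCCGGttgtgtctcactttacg

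Among the 13 genes of eIF3, the largest initiation factor, 6 rose, none fell and 7 did not pass. Over all 10166 tested genes 19.3% were higher. Eif3d, Eif3e and Eif3h lie on chromosome 15 and Eif3b on chromosome 5, where 41% and 34% of all tested genes were higher. Of the 6, only Eif3b and Eif3i still passed when libraries were centred by chromosome. Eif3h, a subunit of the octamer that forms the body of eIF3, stood at 90.9, 108 and 94.8 RPKM in normal libraries 1 to 3 and at 265 and 241 RPKM in AML libraries 1 and 2. Both AML values were more than 2 times the highest normal one. The ratio of means was 2.58 (97.9 ± 9.01 RPKM, SD, n = 3, against 253 ± 16.5 RPKM, SD, n = 2), with a log2 fold change of 1.36 (SE 0.23, limma adjusted p = 0.0063). Eif3e, the octamer subunit to which eIF3d attaches, was at 38.3, 52.2 and 27.8 RPKM in normal and 85.8 and 72.3 RPKM in AML libraries. Its groups did not overlap, although the normal libraries differed among themselves by more than the gap between the groups. Its log2 fold change was 1.02 (SE 0.31, limma adjusted p = 0.044).

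The 3 subunits of the module around Eif3b, which binds near the mRNA entry channel, all rose. Eif3b was at 23.8, 20.3 and 21 RPKM in normal and 70.6 and 41.6 RPKM in AML libraries, so that the AML libraries differed from each other by more than AML library 2 did from any normal library. Its mean was 2.59-fold higher (log2 fold change 1.29, SE 0.28, limma adjusted p = 0.016). Eif3g, an RNA-binding subunit, was at 28.9, 31.3 and 35.6 RPKM in normal and 59.1 and 58.4 RPKM in AML libraries (1.84-fold). Eif3i, a WD-repeat subunit, was at 20.1, 26.1 and 23.2 RPKM and 45.4 and 39.1 RPKM (1.83-fold). Neither showed overlapping groups, with limma adjusted p-values of 0.027 and 0.033. Eif3d, the subunit known to contact the cap of some mRNAs, stood at 31, 30.2 and 27.3 RPKM and 59.4 and 54.3 RPKM, a 1.93-fold difference (limma adjusted p = 0.019).

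The core scaffold subunits did not pass. Eif3a, which holds the octamer together with Eif3c, was at 47, 50.7 and 33.4 RPKM in normal and 61.7 and 29 RPKM in AML libraries, and its highest and lowest values were both in AML libraries (log2 fold change -0.02, SE 0.37, limma adjusted p = 0.97). Eif3c was at 55.8, 55.3 and 36.4 RPKM and 58.3 and 41.3 RPKM, with overlapping groups (0.02, SE 0.30, limma adjusted p = 0.96). The sign of both turned with the scaling or the libraries used. Eif3f showed the narrowest groups, at 68.3, 69.1 and 69 RPKM in normal and 104 and 102 RPKM in AML libraries, yet missed the threshold (log2 fold change 0.57, SE 0.22, limma adjusted p = 0.084). Eif3k, Eif3l, Eif3m and Eif3j had log2 fold changes from 0.31 to 0.65 and adjusted p-values from 0.12 to 0.40. By level, Eif3h, Eif3k and Eif3f were the most abundant subunits in every library, and Eif3j, which binds loosely, the least abundant (2.74 to 3.18 RPKM in normal and 3.5 and 4.84 RPKM in AML libraries). The summed level of the 13 genes was 558, 637 and 535 RPKM in normal and 1098 and 904 RPKM in AML libraries.

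**Figure D2:**
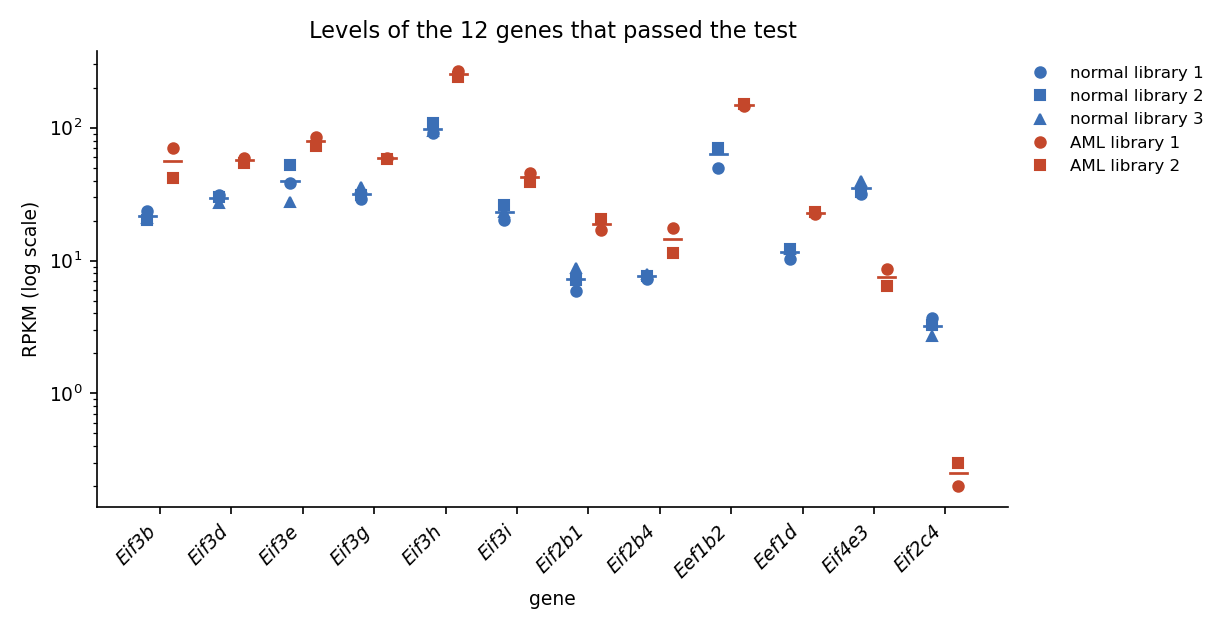
RPKM (y axis, log scale) of the 12 genes that passed the test (x axis) in each library, with normal libraries in blue, AML libraries in red, a marker shape per library and a short line at each group mean. The groups do not overlap for any of the 12 genes, and Eif3b and Eif2b4 show the widest gap between the AML libraries among the genes that rose.

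Of the 5 eIF2B subunit genes 2 rose. They lie on chromosome 5, where 34% of all tested genes were higher, against 19.3% of all 10166 tested genes. Eif2b1, the alpha subunit that takes part in sensing phosphorylated eIF2, was at 5.9, 7.14 and 8.78 RPKM in normal and 17.1 and 20.5 RPKM in AML libraries. Both AML values lay well above every normal one, and the mean was 2.58-fold higher (log2 fold change 1.27, SE 0.24, limma adjusted p = 0.0097). Eif2b4, the delta subunit, was at 7.2, 7.7 and 7.98 RPKM and 17.7 and 11.4 RPKM (log2 fold change 0.82, SE 0.25, limma adjusted p = 0.045). AML library 2 was the lower of its pair and still above all normal libraries. Eif2b3, Eif2b2 and Eif2b5 had log2 fold changes of 0.45, 0.18 and 0.20 and did not pass. Eif2b5, the catalytic epsilon subunit, was at 9.83, 10.7 and 11.7 RPKM in normal and 12.8 and 12.1 RPKM in AML libraries.

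None of the 4 genes of eIF2 itself passed. Eif2s1, the alpha subunit phosphorylated by the stress kinases, was at 12.6, 13.7 and 9.89 RPKM in normal and 18.8 and 16.1 RPKM in AML libraries, which did not overlap (log2 fold change 0.51, SE 0.24, limma adjusted p = 0.14). The gamma subunit has a copy on the X and one on the Y chromosome. Eif2s3x was at 21.1, 26.2 and 22.3 RPKM in normal and 19.8 and 10.7 RPKM in AML libraries, all AML values lower (-0.63, SE 0.30, limma adjusted p = 0.15). Eif2s3y was at 48.3, 71.6 and 51.6 RPKM and 68 and 141 RPKM, with AML library 1 inside the normal range (0.79, SE 0.36, limma adjusted p = 0.14). The Y copy thus made up 69.6% to 73.2% of the pair in normal libraries, 77.4% in AML library 1 and 92.9% in AML library 2, a share that depends on the gene lengths the authors used. Xist, the RNA of the inactive X chromosome, was at 0 in all 5 libraries, and Ddx3y, Uty and Kdm5d of the Y chromosome were detected in all 5. Eif2s2, the beta subunit, had a log2 fold change of 0.02, and Eif2a, which can bring initiator tRNA without eIF2, one of 0.14 (15.4, 19.7 and 12.9 RPKM in normal and 18.7 and 16.4 RPKM in AML libraries).

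At the cap, Eif4e3 fell and eIF4E itself did not pass. Eif4e3 was at 31.6, 33 and 40 RPKM in normal and 8.7 and 6.4 RPKM in AML libraries, with both AML values far below the lowest normal one. It was 4.62-fold lower (34.9 ± 4.5 RPKM, SD, n = 3, against 7.55 ± 1.63 RPKM, SD, n = 2), with a log2 fold change of -2.07 (SE 0.24, limma adjusted p = 0.0016). Eif4e was at 10.9, 12.6 and 11 RPKM and 13.6 and 13.3 RPKM, without overlap but with a difference about the size of its SE (log2 fold change 0.21, SE 0.21, limma adjusted p = 0.46). Eif4e2, which binds caps but does not recruit eIF4G, was at 10.6, 11.6 and 8.6 RPKM and 7.9 and 6.2 RPKM (-0.48, SE 0.24, limma adjusted p = 0.16). Per length, Eif4e3 made up 57.7% to 67.1% of the 3 genes' summed RPKM in normal libraries and 28.8% and 24.7% in AML libraries, while Eif4e went from 18.5% to 22% to 45% and 51.4%. Eif4e1b was at most 0.01 RPKM.

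The 4E-BP genes, whose products compete with eIF4G for eIF4E, did not pass, and Eif4ebp2 and Eif4ebp3 varied widely within each group. Eif4ebp2 was at 74.5, 53.7 and 12.2 RPKM in normal and 24.5 and 4.7 RPKM in AML libraries, so that normal library 3 lay below AML library 1 (log2 fold change -1.65, SE 0.87, limma adjusted p = 0.19). Eif4ebp3 ran the other way, at 7.7, 12.8 and 32.9 RPKM and 20.7 and 45 RPKM (0.99, SE 0.59, limma adjusted p = 0.24). Both passed only without normal library 3, or with normal libraries 1 and 2 and AML library 1 alone, where Eif4ebp2 was lower and Eif4ebp3 higher. Eif4ebp1, the best studied of the family, was at 43.3, 50.7 and 74.1 RPKM and 49.6 and 41.9 RPKM (-0.26, SE 0.29, limma adjusted p = 0.52). The 3 genes together summed to 126, 117 and 119 RPKM in normal and 94.8 and 91.6 RPKM in AML libraries, so that the sum varied less within each group than Eif4ebp2 did. The erythroid markers given above were also lower in normal library 3 than in normal libraries 1 and 2, but near equal in the AML libraries. Their part in the Eif4ebp2 values was not tested.

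None of the 3 eIF4G genes and none of the 5 genes of the helicase group passed. Eif4g1, the main scaffold, was at 40.5, 28.2 and 20.9 RPKM in normal and 39 and 17.1 RPKM in AML libraries (log2 fold change -0.15, SE 0.42, limma adjusted p = 0.81). Eif4g2, a relative that works without the cap, had the highest mean of the 3, at 108, 111 and 70.6 RPKM and 74.8 and 49.8 RPKM (-0.62, SE 0.31, limma adjusted p = 0.17). It passed as lower without normal library 3. In AML library 2 it was below Eif4g3, which stood at 52.5, 39.7 and 48.5 RPKM in normal and 49.6 and 67.7 RPKM in AML libraries (0.31, SE 0.26, limma adjusted p = 0.38). Eif4a1, the main helicase, was at 52.2, 67.3 and 69.4 RPKM and 96.4 and 70.7 RPKM, and AML library 2 was only just above normal library 3 (0.40, SE 0.26, limma adjusted p = 0.28). Its paralogue Eif4a2 was at 61.3, 87.1 and 127 RPKM and 89.7 and 123 RPKM, with overlapping groups (0.26, SE 0.35, limma adjusted p = 0.60). Eif4a3, an exon junction protein, Eif4b and Eif4h, cofactors of the helicase, had log2 fold changes of 0.43, 0.49 and 0.28.

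The remaining genes named for initiation factors did not pass. Eif1, which guards start codon choice, was at 77.9, 106 and 223 RPKM in normal and 83.1 and 105 RPKM in AML libraries, and normal library 3 was more than 2 times any other (log2 fold change -0.39, SE 0.45, limma adjusted p = 0.53). Eif1a, Eif1ax, Eif1ad and Eif1b had log2 fold changes of -0.40, -0.20, 0.44 and 0.36. Eif5, which triggers GTP hydrolysis on eIF2, was at 86.1, 106 and 65.3 RPKM and 66.9 and 67.1 RPKM (-0.32, SE 0.27, limma adjusted p = 0.39). Eif5b, which joins the subunits, was at 9.7, 10.9 and 14.5 RPKM and 16.4 and 26.7 RPKM and missed the threshold with groups that did not overlap (0.81, SE 0.29, limma adjusted p = 0.076). It passed as higher without normal library 3. Eif6, which keeps free large subunits apart from small ones, was at 17.7, 19.2 and 16.6 RPKM and 23.8 and 14.2 RPKM, the AML libraries enclosing the normal ones.

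In elongation, 2 of 3 genes of the exchange factor of eEF1A rose, while eEF1A and eEF2 did not pass. Over all 10166 tested genes 19.3% were higher. Eef1b2, a catalytic subunit, was at 49.4, 70.3 and 69.6 RPKM in normal and 144 and 149.8 RPKM in AML libraries, more than 2 times the highest normal value. Its mean was 2.33-fold higher (log2 fold change 1.23, SE 0.26, limma adjusted p = 0.013). Eef1d, the other catalytic subunit, was at 10.2, 12.2 and 12.2 RPKM and 22.5 and 23.1 RPKM (1.97-fold, limma adjusted p = 0.018). Eef1g, the structural subunit, was at 21.7, 22.1 and 24.5 RPKM and 32.5 and 34.3 RPKM, which did not overlap but missed the threshold (log2 fold change 0.53, SE 0.21, limma adjusted p = 0.096).

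Eef1a1, which carries tRNAs to the ribosome, was the most abundant member in every library, at 715, 843 and 476 RPKM in normal and 1069.5 and 620 RPKM in AML libraries. Its groups overlapped (log2 fold change 0.30, SE 0.38, limma adjusted p = 0.56). Eef1a2, the form of muscle and neurons, was at most 0.01 RPKM. Eef2, the translocase, was at 243, 213 and 63.2 RPKM and 301 and 89.5 RPKM (0.14, SE 0.71, limma adjusted p = 0.90). Normal library 3 was far below normal libraries 1 and 2, and AML library 2 far below AML library 1. The log2 fold change of Eef2 was 1.36 with only normal library 3 for its group and -0.47 without that library. Eef2k, the kinase that inhibits eEF2, was at 8.4, 7.54 and 2.89 RPKM and 15.9 and 11.1 RPKM (1.08, SE 0.42, limma adjusted p = 0.090). Eif5a, which helps ribosomes over difficult stretches and carries the unusual amino acid hypusine, was at 120, 138 and 154 RPKM and 230 and 108 RPKM (0.20, SE 0.36, limma adjusted p = 0.69). Its relative Eif5a2 was at 0.5, 0.8 and 0.4 RPKM in normal and listed at 0.1 and 0 RPKM in AML libraries, and was lower in the fit without a filter. Eef1e1, a scaffold of tRNA synthetases, was at 3.7, 4.44 and 4.44 RPKM and 6.42 and 5.14 RPKM (0.38, SE 0.22, limma adjusted p = 0.22).

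The Argonaute genes gave the other fall. Eif2c4 (Ago4) was at 3.7, 3.3 and 2.7 RPKM in normal and 0.2 and 0.3 RPKM in AML libraries, a mean 12.9-fold lower (log2 fold change -1.75, SE 0.20, limma adjusted p = 0.0014). Also on chromosome 4 are Eif2c1, at 5.41, 4.12 and 2.51 RPKM and 5.42 and 3.94 RPKM, and Eif2c3, at most 0.8 RPKM. Eif2c2, the Argonaute that can cut its target, was at 20.8, 10.2 and 2.2 RPKM and 4.3 and 1.8 RPKM (-1.26, SE 0.75, limma adjusted p = 0.24), again with normal library 3 within the AML range. It passed as lower without that library.

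Normal library 3 differed from normal libraries 1 and 2, and AML library 2 from AML library 1, in a related way. With 2 AML libraries, it cannot be told which of them departed. Across the 56 genes, the difference of normal library 3 from the mean of normal libraries 1 and 2 and the difference of AML library 2 from AML library 1 had a Pearson correlation of 0.71, against 0.55 across all 10166 tested genes. The 2 differences had the same sign in 36 of the 56 genes (64.3%), against 70.8% of all tested genes, so the measures do not rank the members and all genes alike. These are descriptions over genes, which are not independent replicates. Eif4ebp2 (-2.28 in the normal and -2.16 in the AML group, log2 scale), Eef2 (-1.83 and -1.74) and Eif2c2 (-2.29 and -0.92) had negative differences in both groups. Eif4ebp3 (1.63 and 1.08) had positive ones. For the 10 genes that rose, the first difference ran from -0.67 (Eif3e) to 0.38 (Eif2b1) and the second from -0.75 (Eif3b) to 0.25 (Eif2b1). The test weighs each change against the spread within groups, so genes with small differences of this kind pass more readily. In all tested genes these differences followed transcript length: medians were 0.32 and 0.13 in the 1962 genes with the shortest transcripts and -0.45 and -0.39 in the 1961 with the longest. The difference between AML and normal also followed length, with a median of 0.50 in the shortest and -0.22 in the longest of these classes. With length and GC trends removed, 7 of 55 members were higher and 4 lower, against 1661 and 1768 of 9807 tested genes. Eif2b4, Eif3d, Eif3g and Eif3i were then no longer called, and Eif2s1, Eif4e2 and Eif4ebp1 were gained.

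**Figure D3:**
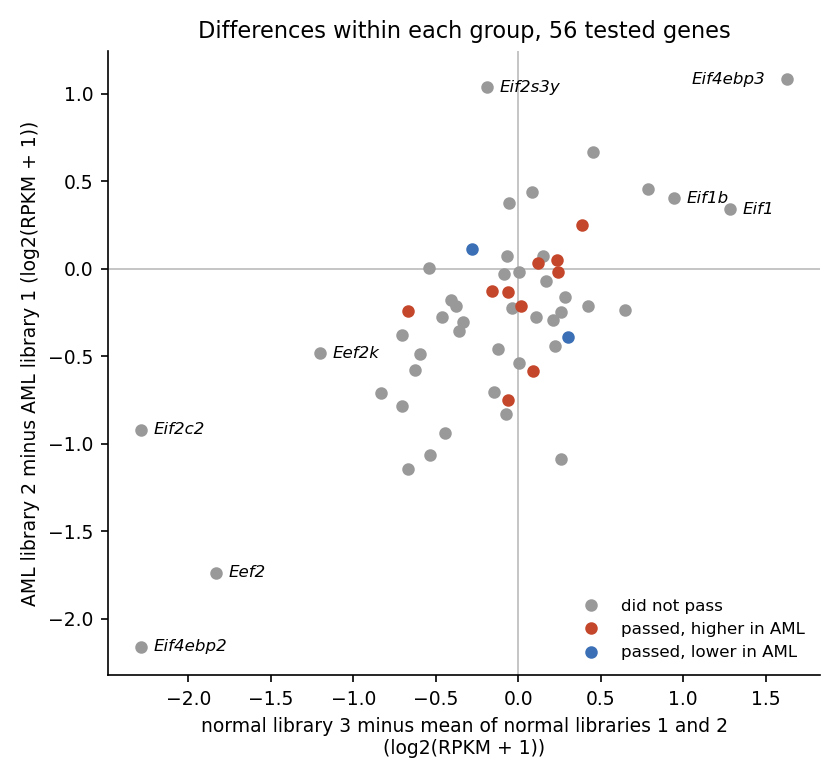
Each point is 1 of the 56 tested genes, with the difference of normal library 3 from the mean of normal libraries 1 and 2 on the x axis and of AML library 2 from AML library 1 on the y axis, both in log2(RPKM + 1). Eif4ebp2, Eef2 and Eif2c2 lie far to the lower left and Eif4ebp3 to the upper right. The 10 genes that rose span -0.67 to 0.38 on the x axis and -0.75 to 0.25 on the y axis, and the test favours genes with small spread within groups.

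The genes that rose were unevenly spread over the chromosomes. Of the 10, Eif3e (chr15:43081586-43114282, mm9), Eif3h (chr15:51618104-51697027), Eef1d (chr15:75725226-75739986) and Eif3d (chr15:77789428-77801254) lie on chromosome 15, and Eif2b4 (chr5:31489931-31495803), Eif2b1 (chr5:125020222-125029140) and Eif3b (chr5:140895259-140919314) on chromosome 5. The other three were Eef1b2 (chr1:63223399-63227060), Eif3i (chr4:129269204-129277892) and Eif3g (chr9:20698796-20703044). The genes that fell, Eif4e3 (chr6:99207478-99616791) and Eif2c4 (chr4:126166785-126210716), lie elsewhere. Thus 7 of the 11 tested members on chromosomes 5 and 15 rose (63.6%), and 3 of the other 45 (6.67%). Over all tested genes, the shares were 36.7% on chromosomes 5 and 15 and 17.1% on the other chromosomes. Chromosomes 5 and 15 were set apart after the data were seen. The other 45 include 2 members of chromosome 10, neither of which passed.

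The medians over all tested genes of chromosomes 5 and 15 were also above those of most chromosomes. The median log2 fold change was 0.65 over 400 tested genes of chromosome 15, 0.51 over 641 genes of chromosome 5 and 0.46 over 470 genes of chromosome 10. On the other 17 chromosomes with at least 20 tested genes it ran from -0.14 to 0.23. The share of genes called higher was 41% on chromosome 15, 34% on chromosome 5 and 33% on chromosome 10, and 11.2% to 21.6% on the others. Genes called lower were present there too, 30 on chromosome 15, 49 on chromosome 5 and 27 on chromosome 10. The shift was present in each AML library, with medians relative to the normal mean of 0.72 and 0.57 on chromosome 15, 0.61 and 0.43 on chromosome 5 and 0.57 and 0.31 on chromosome 10. Medians of the normal libraries stayed between -0.03 and 0.06 there.

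Set against its chromosome's median, Eif3h exceeded it by 0.71, Eif3b by 0.78 and Eif2b1 by 0.76, but Eif3e by 0.37, Eif2b4 by 0.31 and Eif3d and Eef1d by 0.27 each. Eif3l of chromosome 15 did not differ from that median (0.65 for both), and Eif4b of chromosome 15, Eif4h of chromosome 5 and Eef2 and Eif4ebp2 of chromosome 10 lay below it, as did Eif2c2 of chromosome 15. Of the genes that rose elsewhere, Eef1b2 exceeded its chromosome's median by 1.34, Eif3i by 0.83 and Eif3g by 0.76. With every library centred on the median of each chromosome, 3 of 55 members were higher (Eef1b2, Eif3b and Eif3i) and the same 2 were lower. Of all 9865 genes tested in that fit, 1408 were higher and 1382 lower. Eif3h (limma adjusted p = 0.0501), Eif2b1 (0.056), Eif3g (0.063), Eef1d (0.29), Eif3d (0.29), Eif2b4 (0.20) and Eif3e (0.33) then missed the threshold. DNA copy number was not analysed here.

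**Figure D4:**
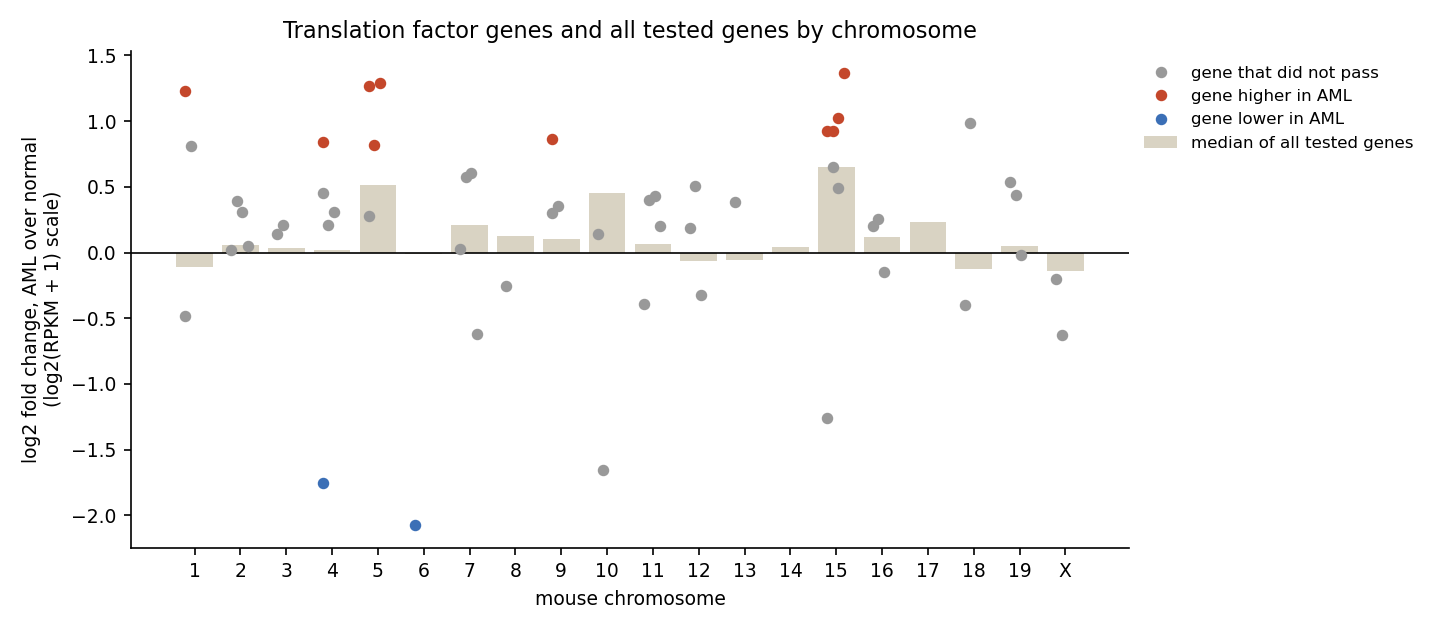
Log2 fold change, AML over normal (y axis, log2(RPKM + 1) scale), by mouse chromosome (x axis), where bars are the median over all tested genes of the chromosome and points are the 54 tested members placed on chromosomes 1 to 19 or X. Chromosomes 15, 5 and 10 have the highest bars, and 7 of the 10 red points stand on chromosomes 5 and 15.

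Genes that act on these factors were counted by fixed lists. For the counts in this and the following paragraph, the shares over all 10166 tested genes were 19.3% higher and 11.8% lower. Of the 4 eIF2 kinases, Eif2ak4 (GCN2, the sensor of uncharged tRNA) rose from 1.44, 1.45 and 1.31 RPKM in normal to 3.61 and 3.55 RPKM in AML libraries, 2.56-fold (limma adjusted p = 0.011), and the other three did not pass. Of 13 tested genes that act downstream of phosphorylated eIF2, 1 rose and 6 fell. Asns, asparagine synthetase, fell 33.9-fold, from 12.9, 15.9 and 16.9 RPKM to 0.6 and 0.3 RPKM (log2 fold change -3.48, SE 0.23, limma adjusted p = 0.00031). Atf3, a stress-induced transcription factor, was at 7.7, 37.5 and 5.3 RPKM and 0.3 and 0.6 RPKM (-3.15, SE 0.72, limma adjusted p = 0.017), and Sesn2, a stress-induced inhibitor of mTORC1, was 6.63-fold lower. Nupr1, Ppp1r15a (a subunit of the phosphatase that restores eIF2) and Cebpg were the other falls. Chac1, a glutathione-degrading enzyme, was the 1 rise, 3.75-fold. Atf4, the central factor of this response, was at 73.2, 133 and 198 RPKM and 163 and 230 RPKM and did not pass (0.63, SE 0.43, limma adjusted p = 0.30).

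None of 15 tested genes of mTORC1 and cap regulation passed. Mknk2, a kinase of eIF4E, had the highest mean of these, at 49.9, 42.6 and 57.6 RPKM in normal and 75.3 and 77.7 RPKM in AML libraries (log2 fold change 0.61, SE 0.24, limma adjusted p = 0.091). None of 6 genes linking the poly(A) tail to initiation passed, and Pabpc1, the main poly(A)-binding protein, was at 246, 207 and 142 RPKM and 327 and 144 RPKM. Of 9 tested genes of initiation and termination without an eIF name, 1 rose and 1 fell. Denr, a partner in reinitiation, rose 1.97-fold (limma adjusted p = 0.027). Gspt2, a release factor subunit, fell 16.6-fold, from 7.7, 8.6 and 8.6 RPKM to 0.5 RPKM in both AML libraries (limma adjusted p = 0.00038). Of 9 tested genes of hypusine, polyamine and diphthamide synthesis, Dph5, an enzyme of the diphthamide on eEF2, rose 3.26-fold (log2 fold change 1.35, SE 0.20, limma adjusted p = 0.0039). Srm, spermidine synthase, rose 2.37-fold, Dohh, which completes hypusine on eIF5A, rose 2.04-fold, and none of the 9 fell.

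Leaving out 1 library at a time left the calls of Eif4e3 and Eif2c4 in all 5 fits. Eif3h and Eif2b1 were called in 4 of 5, lost without AML library 2 (limma adjusted p = 0.052 and 0.090). Eif3b was lost without normal library 2 or AML library 1, and Eef1b2 without either AML library. Eif2b4, Eif3d, Eif3e, Eif3g, Eif3i and Eef1d passed in 1 of the 5 fits, the one without normal library 3. The number of members called higher was 4 without normal library 1, 3 without normal library 2, 12 without normal library 3, 2 without AML library 1 and 1 without AML library 2, and each lone AML library was assumed to vary like the normal group. In those fits every one of the 10 kept a positive log2 fold change, which was fixed in advance because their groups do not overlap. Of all tested genes, 1139 of 9948 were higher without normal library 1. Without normal library 2 it was 955 of 9933, and without normal library 3 it was 2757 of 10110.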

How the data were processed

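Total RNA of sorted cells was sequenced after Illumina TruSeq RNA preparation, per the labels' protocols. The deposited table holds 1 column per library, matched by title. Neither labels nor header name the unit. The deposited values were treated as RPKM, since totals differ between libraries while values multiplied by GENCODE exon length in kilobases gave sums of 1053820 to 1119810. Per the submitters' processing notes the genome was mm9. Aligner, counting tool and annotation were not given in the sources used here. Genes were deposited with 1 or 2 decimals.

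Values were compared as log2(RPKM + 1), which understates the change of low genes, for the 10166 genes that reached 1 RPKM in 2 or more libraries, with limma 3.58.1 in R 4.3.3 (variance trend, robust estimation, two-sided) and Benjamini-Hochberg adjustment over all tested genes at 0.05. The fit was tested on simulated data. Folds, means and SD are on the RPKM scale, and limma gave each log2 fold change with its SE. Gene positions came from GENCODE M1 (mm9), matched by symbol for 97% of tested genes. Reads shared with near-identical copies, frequent for translation factors, can be split between genes, and how they were counted is not given here.

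Members and gene lists were chosen with earlier results of these data known. Library values are given for each member called, for the most abundant member of a factor without a call and for a fixed set of central factors. From each pathway list up to 3 called genes per direction are given, or the one with the highest mean. Others named were chosen after their values were seen. Alternatives covered scaling, filter, pseudocount, variance model, rounding and libraries left out. Trends with length and GC, centring by chromosome, and the fit on normal libraries 1 and 2 with AML library 1 were added after seeing the data.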

Additional observations from a re-analysis of the deposited data

How the results depend on the processing

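With 2 AML libraries and no read counts, the calls of single genes are limited by the spread between libraries. The count of members that rose changed with the setting. Over the 17 alternatives tried, each of the 10 genes that rose kept a positive log2 fold change and Eif4e3 and Eif2c4 a negative one where they were tested. The groups of these genes do not overlap, so leaving out libraries could not turn their signs. The genes were also picked by these signs in the same data, so the kept directions are a description only. No paired analysis was possible because the numbers in the library titles of the 2 groups share only the number 4, and no label ties a library of one group to a library of the other.

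The number of genes called among all tested was 3155, and 674 to 4899 with 1 library left out. It was 1335 with only normal library 3 for its group and 5221 with only normal libraries 1 and 2 and AML library 1. Of the called genes 62.1% were higher, but 50.6% after median centring, 48.4% with length and GC trends removed and 50.5% when centred by chromosome. Main scaling left the median of all tested genes at a log2 fold change of 0.12, and median centring at 0.02. The 10 members called higher became 1 to 12 with 1 library left out, 5 with only normal library 3, 3 when centred by chromosome and 24 with normal libraries 1 and 2 and AML library 1. The 2 members called lower became 2 to 5 with 1 library left out, 1 with a filter at 5 RPKM (which removed Eif2c4), 1 with only normal library 3, 4 with length and GC trends removed and 5 with normal libraries 1 and 2 and AML library 1. The fit with length and GC trends removed, the centring by chromosome and the fit on normal libraries 1 and 2 and AML library 1 were chosen after seeing the data. The number of all tested genes called higher moved as well. It was 1959 of 10166 in the main fit, with 10 of 56 members. Centred by chromosome it was 1408 of 9865 (3 of 55 members), and with length and GC trends removed 1661 of 9807 (7 of 55 members). The causes of these changes were not tested.

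Directions turned only in members that did not pass, with these log2 fold changes. Upper quartile scaling turned Eif2s2 (-0.071), Eif3c (-0.076) and Eif6 (-0.049), and median centring turned Eif2s2 (-0.075), Eif3c (-0.073) and Eif6 (-0.050). Quantile normalization turned Eef1a1 (-0.13), Eef2 (-0.056), Eif2s2 (-0.086), Eif3c (-0.13) and Eif6 (-0.040). Removing length and GC trends turned Eef2 (-0.15), Eif1ax (0.15), Eif1b (-0.17), Eif2b2 (-0.27), Eif3a (0.21), Eif3c (-0.10), Eif3k (-0.012), Eif4a3 (-0.012), Eif4h (-0.012), Eif5a (-0.28) and Eif6 (-0.51). Centring by chromosome turned Eef2 (-0.47), Eif2s2 (-0.024), Eif3c (-0.12), Eif4b (-0.11) and Eif4h (-0.14). Normal library 3 alone for its group turned Eif1b (-0.27), Eif2c2 (0.27), Eif3a (0.33), Eif4a2 (-0.27), Eif4ebp3 (-0.10), Eif4g1 (0.30) and Eif5 (0.037). Normal libraries 1 and 2 with AML library 1 turned Eif1ax (0.048), Eif3a (0.33), Eif4ebp1 (0.079) and Eif4g1 (0.20). Leaving out 1 library gave ranges across 0 for Eef1a1 (-0.090 to 0.70), Eef2 (-0.73 to 1.01), Eif1 (-0.71 to 0.039), Eif2c1 (-0.025 to 0.41), Eif2s2 (-0.13 to 0.25), Eif3a (-0.55 to 0.51), Eif3c (-0.22 to 0.27), Eif4g1 (-0.72 to 0.42), Eif5a (-0.34 to 0.75) and Eif6 (-0.31 to 0.40).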
